A study of Mus musculus with 12 samples.

Results

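The expanded huntingtin allele was compared with the control allele in striatum taken from male mice aged 90 days, over all genes and averaged over the presence and absence of the receptor mGluR5. All 12 arrays of the study entered, 6 labelled HdhQ111/Q111 and 6 labelled HdhQ20/Q20. Both alleles are knock-ins carried on both chromosomes, so the control mice carry an engineered Htt gene as well. Within each allele 3 arrays came from mGluR5+/+ mice and 3 from mGluR5-/- mice, and all mice had a mixed background of 129, CD-1, C57BL/6 and FV strains. RNA was measured with whole-transcript arrays, and values are log2 signals, so a difference of 1 is 2-fold. Whether each array stands for an animal of its own is not in the labels, and the p-values therefore measure the spread between these samples, which may be technical. Strain alleles that differ between the Q111 and Q20 mice cannot be told apart from an effect of Q111.

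Huntingtin is a large scaffold protein of vesicle transport and transcription whose glutamine tract is lengthened in Huntington's disease. The spiny projection neurons of the striatum, which use GABA and carry dopamine receptors, are the cells most affected in the human disease. In knock-in mice the long tract is placed in the mouse's own gene, and projection neuron genes are known to decline with age before neurons are lost. mGluR5, encoded by Grm5, is a glutamate receptor coupled to calcium release that is abundant in these neurons.

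The average effect of Q111 touched a small share of genes, with more falls than rises among the called genes. In total 221 of 16721 tested genes, 1.32%, differed between Q111 and Q20 arrays (limma, Benjamini-Hochberg adjusted p below 0.05, the threshold for every gene described here as changed). Of these, 138 were lower (0.825% of tested genes) and 83 higher (0.496%). The median size of their log2 change was 0.419, 49 changed at least 1.5-fold (0.293%) and 10 at least 2-fold. Over all tested genes the median change was -0.02, 56.6% were negative, and the middle of the distribution, from the 5th to the 95th percentile, ran from -0.20 to 0.17. The 6 arrays of each allele did not overlap in 202 tested genes (1.21%), of which 114 were among the 221. The count of changed genes ranged from 119 to 511 with 1 array left out, and both ends came from leaving out a Q111 mGluR5+/+ array, replicate 1 for the lowest and replicate 2 for the highest. It was 488 when the interquartile range of the arrays was added to the model, then split nearly evenly into 250 lower and 238 higher. With a change of at least 1.5-fold also required, it was 49. The stated criteria of the study, an unadjusted p below 0.05 and at least 1.5-fold, gave 51 in an unmoderated linear model. Under all 27 settings 26 genes stayed called, 20 lower and 6 higher. Some settings require 1.5-fold, so a called gene with a smaller change could not stay called under all 27.

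The arrays were alike in level, with medians of 7.05 to 7.16. Their interquartile range was 2.81 ± 0.0915 (SD, n = 6) in Q20 and 2.73 ± 0.126 in Q111 arrays, which did not differ beyond the spread (exact permutation test, two-sided, p = 0.24). Genes that define striatal projection neurons were well above the array medians, with a list mean of 10.47 to 10.70 over the 12 arrays. Grm5 lay at 11.85 to 12.08 in the mGluR5+/+ arrays and 10.93 to 11.17 in the mGluR5-/- arrays, and its average Q111 effect was -0.02 ± 0.07 (SE, adjusted p = 0.934 in limma). Htt itself read 9.86, 9.92 and 10.05 (lowest, median and highest) in the 6 Q20 arrays and 9.71, 9.76 and 9.84 in the 6 Q111 arrays. The Q111 arrays were all below the Q20 arrays, by a gap of 0.02, but the change of -0.15 ± 0.06 (SE) did not pass (limma adjusted p = 0.344). None of the 20 tested genes nearest to Htt on chromosome 5 was called in limma, and 0 had an unadjusted p below 0.05, a level that 1907 of all tested genes (11.4%) reached.

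**Figure D1:**
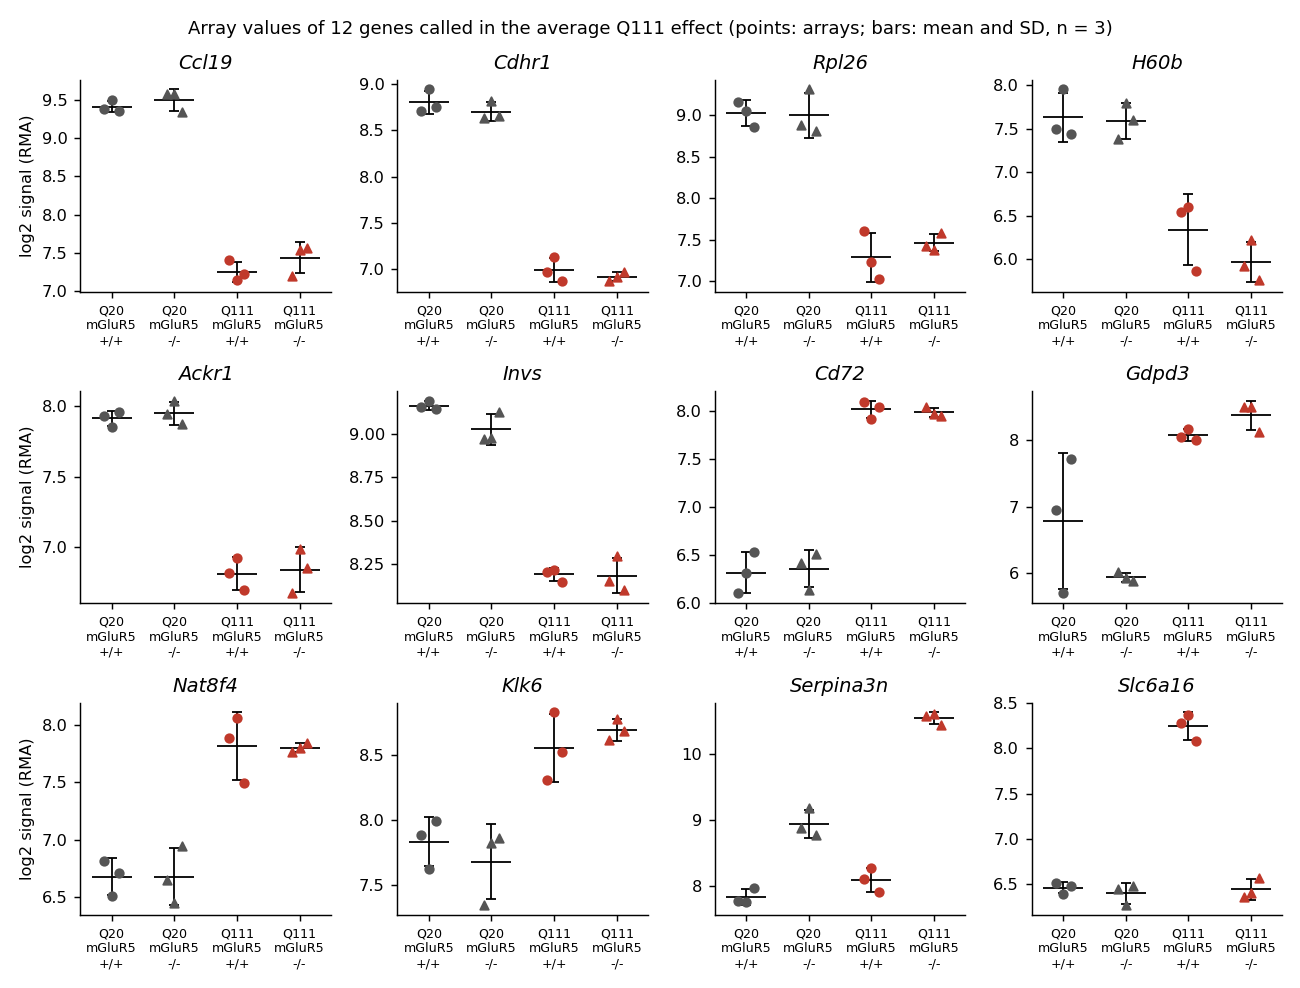
Log2 RMA signal (vertical axes, which do not start at 0) of 12 genes in the 4 groups, with 1 point per array, circles for mGluR5+/+ and triangles for mGluR5-/-, grey for Q20 and red for Q111, and bars for the mean and SD of 3 arrays. The 10 genes from Ccl19 to Klk6 were shifted in the same direction with and without mGluR5, while Serpina3n rose mainly without it (log2 change 1.60 against 0.26) and Slc6a16 with it (1.79 against 0.04).

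The largest falls, predicted genes aside, were in Ccl19, the chemokine that draws lymphocytes and dendritic cells through the receptor CCR7, in Cdhr1, a cadherin of photoreceptors, in Rpl26, a protein of the large ribosomal subunit, and in H60b, a ligand of the natural killer cell receptor NKG2D. Ackr1, a receptor that binds chemokines without signalling, followed. The largest rises, predicted and clone-named genes aside, were in Gdpd3, a lysophospholipase D, Cd72, an inhibitory co-receptor of B cells, and Nat8f4, of the N-acetyltransferase 8 family. These genes changed by 2.15- to 4.30-fold, and each of them did so to a similar degree with and without mGluR5 apart from Gdpd3, whose Q20 arrays were scattered.

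Promoters of Ccl19 and Cd72 are shown because these genes had the largest fall and, clone-named genes aside, the second largest rise, and lie on the same stretch of chromosome 4, and that of Rpl26 because it was the single ribosomal protein gene to change. Each is the 250 bases before the RefSeq start in GRCm38.p6, read on the strand of the gene, and capitals mark a match to 1 of 3 motifs searched on both strands. These were the antioxidant response element core TGACNNNGC, the cAMP response element TGACGTCA and the TATA box TATAAA.
Ccl19 (chr4:42756366-42756615, minus strand): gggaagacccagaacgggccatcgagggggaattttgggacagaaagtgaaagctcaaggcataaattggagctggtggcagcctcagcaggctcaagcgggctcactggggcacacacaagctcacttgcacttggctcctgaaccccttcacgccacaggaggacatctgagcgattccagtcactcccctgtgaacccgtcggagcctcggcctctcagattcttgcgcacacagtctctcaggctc
Cd72 (chr4:43454627-43454876, minus strand): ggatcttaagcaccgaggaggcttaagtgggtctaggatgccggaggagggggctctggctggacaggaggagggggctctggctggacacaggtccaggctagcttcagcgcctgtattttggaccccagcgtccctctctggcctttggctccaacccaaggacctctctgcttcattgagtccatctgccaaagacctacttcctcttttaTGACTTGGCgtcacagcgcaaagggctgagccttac
Rpl26 (chr11:68901316-68901565, plus strand): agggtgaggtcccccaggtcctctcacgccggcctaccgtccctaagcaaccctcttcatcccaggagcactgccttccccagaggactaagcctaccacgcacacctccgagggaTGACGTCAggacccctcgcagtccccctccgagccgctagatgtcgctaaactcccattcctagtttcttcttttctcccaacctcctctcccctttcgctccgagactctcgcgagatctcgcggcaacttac
The window of Ccl19 holds none of the 3 motifs. That of Cd72 holds the antioxidant response element core at 36 to 28 bases before the start, and that of Rpl26 the cAMP response element at 134 to 127 bases before it. A promoter entry existed for 181 of the 221 called and 13149 of the 16721 tested genes. The antioxidant core occurred in 8.84% of the called and 11.4% of the tested genes, the cAMP element in 2.76% and 2.42%, and the TATA box in 4.42% and 8.09%. A match is a description of letters in the window and not of a bound site.

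Among the falls, Ccl19 read 9.38, 9.49 and 9.36 in the Q20 mGluR5+/+ arrays, 9.57, 9.58 and 9.34 in the Q20 mGluR5-/- arrays, 7.40, 7.15 and 7.22 in the Q111 mGluR5+/+ arrays and 7.21, 7.55 and 7.57 in the Q111 mGluR5-/- arrays. All Q111 arrays lay far below all Q20 arrays, whatever the mGluR5 genotype, with a gap of 1.77. The average change was -2.10 ± 0.08 (SE, 4.30-fold, limma adjusted p = 7.27e-10). Cdhr1 ranged from 8.63 to 8.95 in Q20 (median 8.73) and from 6.87 to 7.13 in Q111 arrays (median 6.94), a fall of 1.80 ± 0.07 with no overlap (3.48-fold, limma adjusted p = 7.27e-10). Rpl26 read 8.81, 8.96 and 9.31 (lowest, median and highest) in Q20 and 7.03, 7.41 and 7.61 in Q111 arrays. Its change was -1.63 ± 0.11 (3.10-fold, limma adjusted p = 5.25e-07), again with no overlap. RefSeq lists pseudogenes of both Ccl19 and Rpl26, and how far the probe sets also read such copies is not known here.

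H60b read 7.38, 7.55 and 7.95 (lowest, median and highest) in Q20 arrays and 5.76, 6.07 and 6.60 in Q111 arrays. The lowest Q20 array was above the highest Q111 array by 0.78, and the change was -1.46 ± 0.13 (SE, limma adjusted p = 2.29e-05). Replicate 3 of the Q111 mGluR5+/+ mice (5.87) and of the Q111 mGluR5-/- mice (5.76) lay below the 25th percentile of its array (5.94 and 5.87). The size of this fall is therefore not exact. Ackr1, which sits on small veins and red blood cells and takes up chemokines, read 7.85, 7.94 and 8.04 in Q20 and 6.67, 6.84 and 6.99 in Q111 arrays. It fell by 1.11 ± 0.07 without overlap (limma adjusted p = 4.11e-07), and the effects with and without mGluR5 were nearly the same, at -1.10 and -1.11.

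Among the next falls, Invs, inversin of the primary cilium, fell by 0.91 ± 0.06 (SE), Epm2a, the glycogen phosphatase laforin, by 0.87 ± 0.09, and Dctn3, a subunit of the dynactin complex that works with dynein, by 0.86 ± 0.09 (limma adjusted p at most 7.57e-05). Car12, a membrane-bound carbonic anhydrase, fell by 0.80 ± 0.09. In these 4 genes the arrays of the alleles did not overlap and the call held under all 26 alternatives. Cetn4, a centrin of ciliary basal bodies, fell by 0.86 ± 0.14 and Mzt1, a small protein of the gamma-tubulin complex, by 0.89 ± 0.19, both with overlap of the arrays. The change of Mzt1 was -0.42 ± 0.27 with mGluR5 and -1.36 ± 0.27 without it, the difference did not pass (limma adjusted p = 0.795), and its average call held under 14 of the 26 alternatives. Ccl28, a chemokine of mucosal surfaces, fell by 0.79 ± 0.11, but both Q111 groups averaged under the 25th percentile of their arrays, which was 5.69 to 5.94, where a signal is not told from background, so this change has no exact size.

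Among the rises, Cd72 read 6.10, 6.31 and 6.53 in Q20 mGluR5+/+, 6.42, 6.13 and 6.5 in Q20 mGluR5-/-, 8.09, 7.92 and 8.04 in Q111 mGluR5+/+ and 8.04, 7.97 and 7.95 in Q111 mGluR5-/- arrays. The Q111 arrays were tightly grouped and all above the Q20 arrays, by 1.39. The change was 1.67 ± 0.08 (SE, 3.18-fold, limma adjusted p = 2.13e-08). Gdpd3 read 6.94, 5.70 and 7.71 in Q20 mGluR5+/+ and 6.02, 5.92 and 5.88 in Q20 mGluR5-/- arrays. It read 8.04, 8.17 and 8.0 in Q111 mGluR5+/+ and 8.50, 8.48 and 8.11 in Q111 mGluR5-/- arrays. The Q111 values were all higher, by a gap of 0.29, but the Q20 values were spread over 2 log2 units, which the standard error of the change reflects (1.85 ± 0.23, limma adjusted p = 0.00038). Replicate 2 of the Q20 mGluR5+/+ mice lay below the 25th percentile of its array (5.75), and the Q20 mGluR5-/- arrays lay little above theirs (5.69 to 5.86). The size of this rise is therefore not exact. Nat8f4 ranged from 6.45 to 6.94 in Q20 and from 7.49 to 8.06 in Q111 arrays, without overlap, and rose by 1.13 ± 0.10 (limma adjusted p = 2.2e-05).

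Smaller rises included several secreted or metabolic proteins. Klk6, a serine protease made by oligodendrocytes, rose by 0.87 ± 0.11 (SE) and the Wnt5a receptor Ror1 by 0.68 ± 0.11. Aldh1a1, which makes retinoic acid and marks a set of midbrain dopamine neurons, rose by 0.66 ± 0.10, and the glucose-6-phosphate transporter Slc37a4 by 0.58 ± 0.08. Dpy19l1, a mannosyltransferase, rose by 0.72 ± 0.08, and Catspere2, a subunit of the sperm calcium channel, by 0.83 ± 0.12. In these 6 genes the Q111 arrays were all above the Q20 arrays (limma adjusted p at most 0.00622). Chil1, a chitinase-like protein secreted by astrocytes, rose by 0.67 ± 0.13 with a slight overlap of the arrays. Mpzl2, an adhesion protein of epithelia, rose by 0.67 ± 0.10. Its Q20 values, 5.60 to 5.96, lay close to the 25th percentile of the arrays (5.69 to 5.94), so the size of its rise is not exact.

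The average joined effects that were mostly of 1 direction but of unequal size. Of the 221 changed genes 210 had the same sign with and without mGluR5, a share favoured by their choice on the average, against 60.2% of all tested genes. Taken alone, the effect with mGluR5 called 96 genes (0.574%) and that without mGluR5 148 (0.885%), and 33 genes were in both sets, 34.4% of the first and 22.3% of the second. These 2 comparisons share no array. Of the 33 genes 27 moved in the same direction, and 6 moved in opposite directions. Across the 16721 genes the 2 effects had a Pearson r of 0.271 and a Spearman rho of 0.269, a description over genes that are not independent and share arrays, probes and scaling. The difference between the 2 effects passed the test for 73 genes (0.437%), of which 26 were among the 221. The other 195 changed on average without a called difference, which does not show that their effects were equal.

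**Figure D2:**
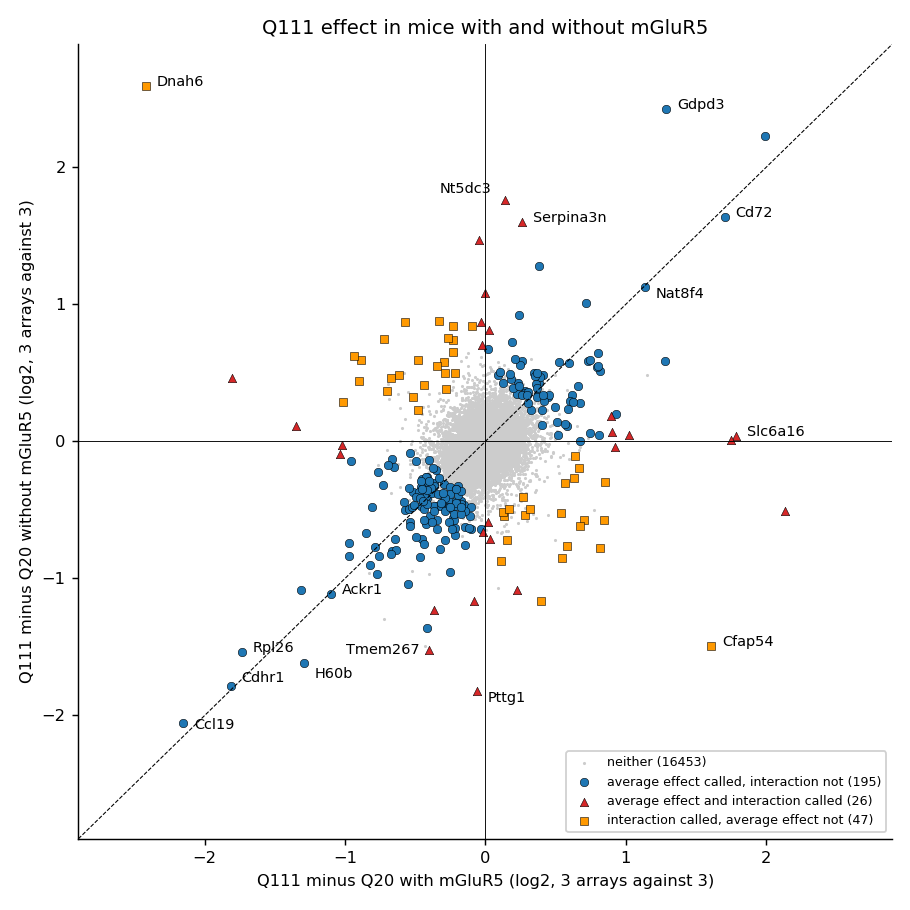
Log2 change from Q20 to Q111 in mice with mGluR5 (horizontal axis) against that in mice without mGluR5 (vertical axis), 1 point per tested gene and 3 arrays against 3 in each comparison. Blue circles are the 195 genes called on average alone, red triangles the 26 called on average and for the difference between the effects, and orange squares the 47 called for the difference alone. The colours follow the calls, which fix how near to the dashed line of equal effects a gene can lie, and Dnah6 (-2.42 and 2.59) and Cfap54 (1.61 and -1.49) lie farthest from it among the labelled genes.

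Some of the largest average changes came from 1 mGluR5 genotype. Serpina3n, a protease inhibitor and a marker of reactive astrocytes, read 7.77, 7.76 and 7.97 in Q20 mGluR5+/+, 8.88, 9.18 and 8.78 in Q20 mGluR5-/-, 8.11, 8.27 and 7.91 in Q111 mGluR5+/+ and 10.58, 10.61 and 10.45 in Q111 mGluR5-/- arrays. Its Q111 effect was 0.26 ± 0.12 (SE) with mGluR5 and 1.60 ± 0.12 without, and the effects differed by 1.34 ± 0.17 (limma adjusted p = 0.00153). The average of 0.93 ± 0.09 lies between a change that did not pass and a 3.03-fold one.

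Slc6a16, an orphan transporter of the neurotransmitter transporter family, showed the reverse pattern. It read 8.28, 8.37 and 8.08 in Q111 mGluR5+/+ arrays and between 6.27 and 6.57 in all 9 others, so that its average rise of 0.92 ± 0.07 stemmed from 1 group. Nt5dc3, of the 5'-nucleotidase family, rose without mGluR5 (1.76 ± 0.13) from a low Q20 mGluR5-/- level of 7.08 to 7.27, and its change with mGluR5 was 0.14 ± 0.13. Pttg1, the securin that acts in the separation of sister chromatids, fell without mGluR5 (-1.82 ± 0.12), with a change of -0.06 ± 0.12 in its presence. The Q111 mGluR5-/- arrays of Pttg1, at 6.5, 5.99 and 6.18, were below all others, which lay between 7.80 and 8.17. Tmem267 and Ublcp1, a phosphatase that acts on the proteasome, fell without mGluR5 (-1.52 ± 0.15 and -1.23 ± 0.11), and stood at -0.40 ± 0.15 and -0.37 ± 0.11 with it.

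Of the other genes called on average and for the difference, the secreted Wnt inhibitor Sfrp1 and the peptide transporter Slc15a2 fell with mGluR5 (-1.02 ± 0.14 and -1.04 ± 0.12, SE) and stood at -0.02 ± 0.14 and -0.09 ± 0.12 without it. The prostaglandin-degrading enzyme Hpgd, the virus restriction factor Fv1, Abhd14a and Fndc1 rose with mGluR5, by 0.90 to 1.03. Pla2g4e, a cytosolic phospholipase, rose without mGluR5 (1.08 ± 0.11), as did Arntl2, a circadian transcription factor (0.70 ± 0.09), and Trappc2l, of the vesicle-tethering TRAPP complex (0.81 ± 0.11). For all of these the difference between the 2 effects passed the test.

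Other genes had strong effects that cancelled in the average. Dnah6, a heavy chain of axonemal dynein, read 8.45, 8.72 and 8.87 in Q20 mGluR5+/+ and 8.78, 8.70 and 8.35 in Q111 mGluR5-/- arrays, but 5.96 to 6.42 in the 6 arrays of the other 2 groups. Its average effect was 0.09 ± 0.09 (SE, limma adjusted p = 0.777), with -2.42 ± 0.13 in the presence and 2.59 ± 0.13 in the absence of mGluR5. Cfap54, a protein of the ciliary central apparatus, was high in the opposite 2 groups, with effects of 1.61 ± 0.15 and -1.49 ± 0.15 and an average of 0.06 ± 0.10. Tacr3, the neurokinin B receptor (0.81 ± 0.15 and -0.78 ± 0.15), behaved likewise. For Aldh7a1, Tnni1 and Pcdhb6 too the difference passed while the average did not.

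Striatal projection neuron genes had small changes, most of them negative. This list and those below were chosen with earlier results of these data known, so their shares are not independent evidence. Of the 40 tested identity genes 2 fell (5% against 1.32% of all tested genes) and none rose, and 9 had an unadjusted p below 0.05 (22.5% against 11.4%). Of the 40, 27 were negative (67.5% against 56.6%), and the median change was -0.04 against -0.02 over all genes. Rxrg, a retinoid X receptor enriched in striatum, read 11.26, 11.39 and 11.48 (lowest, median and highest) in Q20 and 10.96, 11.09 and 11.19 in Q111 arrays. All Q111 arrays were lower, and the change was -0.29 ± 0.06 (SE, limma adjusted p = 0.0304). Lrrc10b, a striatum-enriched leucine-rich repeat protein, fell by 0.53 ± 0.11 with overlap (adjusted p = 0.0304), since 1 Q111 group, that without mGluR5, reached 10.83. These calls held under 15 and 14 of the 26 alternatives. In whole tissue, fewer cells of a type and less RNA per cell cannot be told apart.

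Direct-pathway markers, which include the D1 dopamine receptor, had 10 of 12 tested members negative and a median of -0.09, with none called (4 at an unadjusted p below 0.05, 33.3% against 11.4% of all tested genes). Isl1, a transcription factor of direct-pathway neurons, stood lower in all Q111 arrays (-0.29 ± 0.07, SE) and missed the threshold (limma adjusted p = 0.0705). The opioid precursor gene Pdyn stood at -0.34 ± 0.10 (adjusted p = 0.167) and Nnat at -0.38 ± 0.13 (0.251), both with overlap. Indirect-pathway markers, which include the D2 dopamine receptor and an adenosine receptor, had 6 of 11 members negative, a median of -0.02 and none called (1 at an unadjusted p below 0.05). Plxdc1 stood at 0.28 ± 0.08 (adjusted p = 0.115). Of 27 immediate early genes, which neuronal activity induces, none was called, 0 had an unadjusted p below 0.05 and the median was 0.04.

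Receptors for the main transmitters had single called members, 4.55% of the glutamate and 5.56% of the GABA list, against 1.32% of all tested genes. At an unadjusted p below 0.05 were 3 and 2 members (13.6% and 11.1%, against 11.4%). The presynaptic glutamate receptor Grm7 was the 1 of 22 tested glutamate receptor genes that fell (-0.31 ± 0.07, SE, limma adjusted p = 0.0296), with a list median of -0.04 and a call that held under 13 of 26 alternatives, while the related Grm8 stood at 0.30 ± 0.08 (0.105). Of 18 GABA-A receptor and GABA synthesis genes 15 were negative (83.3%, against 56.6% of all tested genes), and Gabra2, the alpha 2 subunit, was called. The list median was -0.11 on average, -0.041 with mGluR5 and -0.15 without. Gabra2 read 10.10, 10.01 and 9.91 in the Q111 mGluR5+/+ arrays against 10.57 to 10.88 in Q20 and 10.64 to 10.80 in Q111 mGluR5-/- arrays. The fall was thus large in 1 Q111 group, -0.67 ± 0.09 with mGluR5 against -0.13 ± 0.09 without. The average was -0.40 ± 0.06 (adjusted p = 0.00417), and the difference between the effects did not pass (0.54 ± 0.13, adjusted p = 0.115). Gad2, a GABA-synthesizing enzyme, stood at -0.16 ± 0.08 (adjusted p = 0.464).

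The chemokine system held 5 called genes, all lower, among 36 tested (13.9%, against 0.825% of all tested genes called lower). The list was chosen with earlier results of these data known, so this share is not independent evidence. Ccl19, Ackr1 and Ccl28 each lay close to another called gene on their chromosome. The list as a whole had a median of 0.05 with 24 members positive, and 10 members had an unadjusted p below 0.05 (27.8% against 11.4%). Besides Ccl19, Ackr1 and Ccl28 the called genes were Ccl3, an inflammatory chemokine made by microglia, and Cxcl12, the ligand of CXCR4. Ccl3 ranged from 7.04 to 7.46 in Q20 and from 6.62 to 7.03 in Q111 arrays, which did not overlap, and its change was -0.39 ± 0.08 (SE, limma adjusted p = 0.017). Cxcl12 changed by -0.30 ± 0.07 (adjusted p = 0.0405) with a slight overlap, and its call held under 10 of 25 alternatives. Among 22 interferon and MHC class I genes the median was 0.04, and 1 class I gene, H2-Q2, was called (-0.42 ± 0.08, adjusted p = 0.0143). That is 4.55% of the 22 against 1.32% of all tested genes, and 2 had an unadjusted p below 0.05 (9.09% against 11.4%). Of 19 microglia and 18 astrocyte markers none was called, with medians of -0.03 and -0.02 and 4 members of each at an unadjusted p below 0.05 (21.1% and 22.2%, against 11.4% of all tested genes). Of 27 reactive astrocyte markers Serpina3n alone was called, 8 had an unadjusted p below 0.05 (29.6%), and the median of the list was -0.004.

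**Figure D3:**
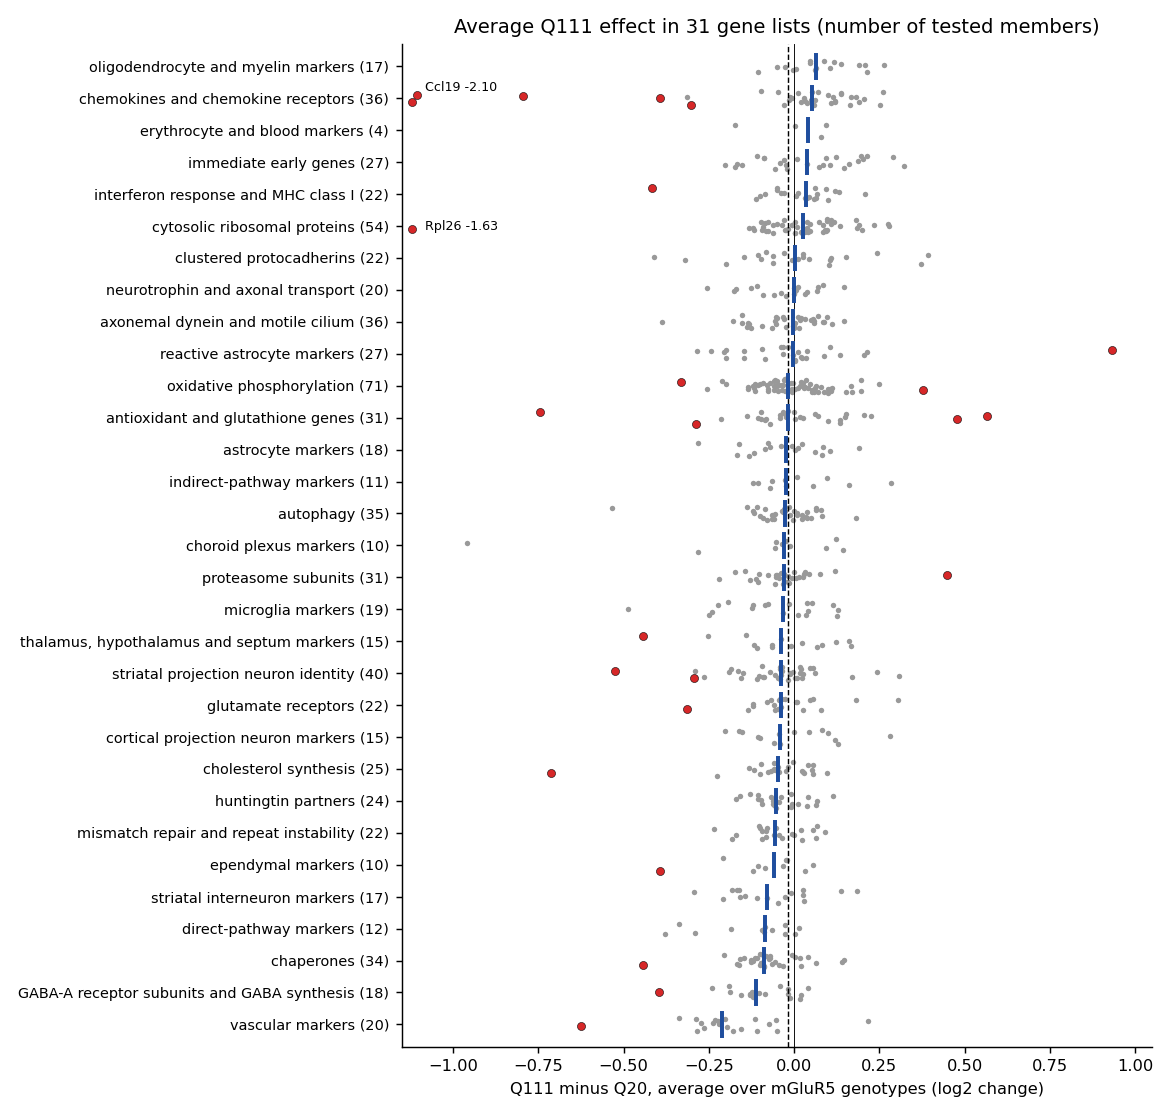
Average log2 change from Q20 to Q111 (horizontal axis) of the tested members of 31 gene lists, 1 point per gene, with red for called genes, a blue bar for the median of the list and a dashed line for the median of all tested genes, -0.02. Ccl19 (-2.10) and Rpl26 (-1.63) lie beyond the axis and are drawn at its left edge. Called genes are scattered over 15 lists, and the vascular markers at the bottom have the lowest median, -0.21.

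Vascular markers, genes of endothelial and mural cells, had the lowest median of the 31 lists, at -0.21, with 19 of 20 tested members negative. The median was -0.149 with mGluR5 and -0.302 without it. Of the 20, 12 had an unadjusted p below 0.05 (60%, against 11.4% of all tested genes) and 1 was called (5% against 1.32%). This was Acvrl1, an endothelial receptor of the TGF-beta family, which read 8.54, 8.52 and 8.62 in Q20 mGluR5+/+, 8.42, 8.49 and 8.56 in Q20 mGluR5-/-, 8.47, 8.38 and 8.59 in Q111 mGluR5+/+ and 7.28, 7.24 and 7.46 in Q111 mGluR5-/- arrays. Its average change of -0.62 ± 0.07 (SE, limma adjusted p = 7.57e-05) came from the Q111 mGluR5-/- group, and the 2 effects differed (-0.08 ± 0.09 against -1.17 ± 0.09, adjusted p = 0.00114). Flt1, a VEGF receptor, stood at -0.29 ± 0.07 (adjusted p = 0.0817) and Abcc9, a pericyte potassium channel subunit, at -0.22 ± 0.06 (0.0854). With and without mGluR5 the changes were -0.23 and -0.34 for Flt1 and 0.02 and -0.46 for Abcc9. The difference passed for neither gene (limma adjusted p = 0.9999 and 0.133). The list mean was 7.83 to 7.98 in Q20 and 7.66 to 7.90 in Q111 arrays, the highest Q111 value being replicate 3 of the mGluR5+/+ mice. The median stayed between -0.23 and -0.18 under 15 alternatives of rescaling and leaving out arrays.

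The vascular list itself was chosen with earlier results of these data known. Endothelial genes outside that list were picked after their values were seen and add no independent evidence either. Ptprb, the endothelial phosphatase VE-PTP, changed by -0.37 ± 0.07 (SE), Eng, the TGF-beta co-receptor endoglin, by -0.33 ± 0.07, and the adhesion receptors Adgrl4 and Adgrf5 by -0.58 ± 0.12 and -0.47 ± 0.10 (limma adjusted p = 0.0101 to 0.0373). With and without mGluR5 the changes were -0.26 and -0.48 for Ptprb, -0.14 and -0.51 for Eng, -0.45 and -0.71 for Adgrl4 and -0.46 and -0.47 for Adgrf5. The difference passed for none of these genes (limma adjusted p at least 0.6749). In all 4 genes the arrays overlapped, and the calls of Eng, Adgrl4 and Adgrf5 held under 16, 15 and 12 of 26 alternatives. Whether the share of vessels differed between the samples was not tested.

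**Figure D4:**
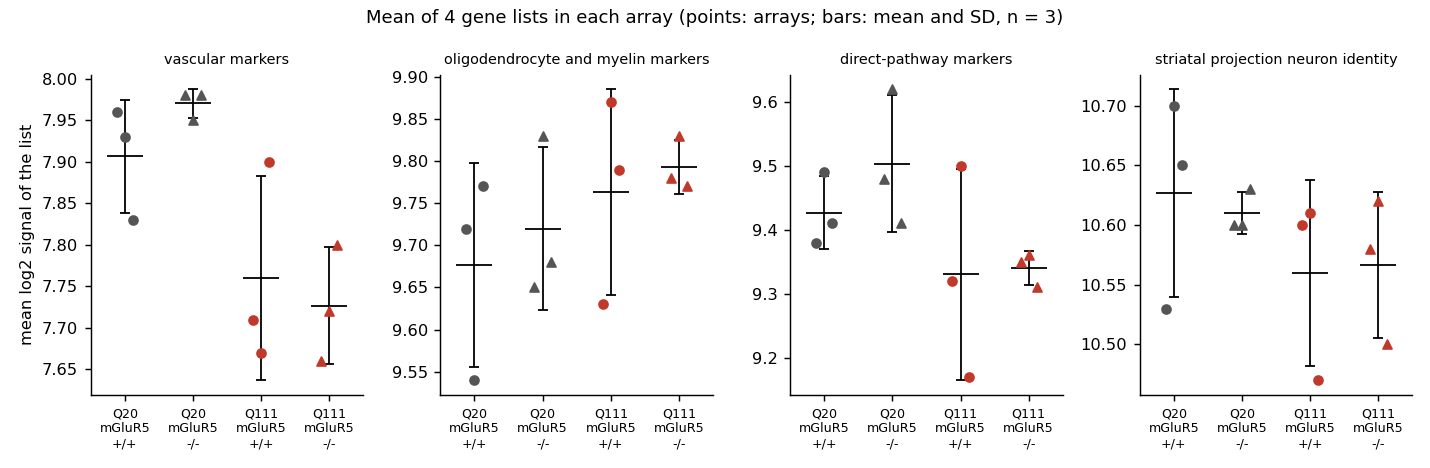
Mean log2 signal of the tested members of 4 gene lists (vertical axes, which do not start at 0) in each array, with circles for mGluR5+/+, triangles for mGluR5-/-, grey for Q20, red for Q111 and bars for the mean and SD of 3 arrays. The vascular list ranges from 7.83 to 7.98 in Q20 and from 7.66 to 7.90 in Q111 arrays, and the groups overlap in the other 3 lists as well.

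Myelin markers pointed the other way without a called gene. Of 17 tested members 13 were positive and 4 had an unadjusted p below 0.05 (23.5% against 11.4%), with a median of 0.06 and list means of 9.54 to 9.83 in Q20 and 9.63 to 9.87 in Q111 arrays. Mag, an adhesion protein of the inner myelin layer, stood at 0.26 ± 0.08 (SE, limma adjusted p = 0.144) and Mog, at the outer surface of myelin, at 0.21 ± 0.07 (0.241). Markers of tissue next to the striatum gave few calls. The cation channel Trpc4, listed for thalamus and septum, was the 1 called of 15 (6.67%, -0.44 ± 0.08, adjusted p = 0.00857). The lipid transfer protein Pltp, listed for ependyma, was the 1 called of 10 (10%, -0.39 ± 0.08, adjusted p = 0.0233). Over all tested genes 1.32% were called. At an unadjusted p below 0.05 were 2 of the 15 and 1 of the 10 (13.3% and 10%, against 11.4%). None of 10 choroid plexus, 15 cortical, 17 interneuron and 4 blood markers was called, where 2, 2, 4 and 1 had an unadjusted p below 0.05 (20%, 13.3%, 23.5% and 25%, against 11.4% of all tested genes).

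Ttr, the transthyretin of choroid plexus, read 6.47, 7.58 and 9.28 (lowest, median and highest) in Q20 and 6.30, 6.51 and 7.65 in Q111 arrays. The values were scattered within each group and overlapped, and the change of -0.96 ± 0.37 (SE) did not pass (limma adjusted p = 0.323). How much adjoining tissue each sample held was not tested beyond these lists.

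Genes for redox balance moved in both directions. Of 31 tested antioxidant and glutathione genes 2 rose and 2 fell, in all 12.9% against 1.32% of all tested genes, 9 had an unadjusted p below 0.05 (29% against 11.4%), and the median was -0.02. Slc7a11, the cystine importer that supplies glutathione synthesis, read 8.26, 8.45 and 8.84 (lowest, median and highest) in Q20 and 7.52, 7.78 and 7.93 in Q111 arrays, with no overlap. Its change was -0.75 ± 0.09 (SE, limma adjusted p = 0.00024). Gsr, glutathione reductase, changed by -0.29 ± 0.07 (adjusted p = 0.0484, called under 10 of 26 alternatives). Gstp1, a glutathione transferase, rose by 0.48 ± 0.09 (0.0139), and Glo1, which detoxifies methylglyoxal with glutathione, by 0.56 ± 0.11 (0.0152). The log2 changes with and without mGluR5 were 0.67 and 0.28 for Gstp1 and 0.93 and 0.20 for Glo1, and the difference did not pass for either gene (adjusted p = 0.911 and 0.367).

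Among 71 oxidative phosphorylation genes the 2 called were both subunits of succinate dehydrogenase, complex II, with opposite signs. Sdhc read 10.46, 10.64 and 10.82 (lowest, median and highest) in Q20 and 10.91, 11.04 and 11.09 in Q111 arrays, all Q111 arrays being higher. Its change was 0.38 ± 0.07 (SE, limma adjusted p = 0.0183). Sdhd, the other membrane anchor, changed by -0.33 ± 0.07 (0.0307) with overlap. The calls of Sdhc and Sdhd held under 18 and 13 of 26 alternatives. The called genes made up 2.82% of the 71, against 1.32% of all tested genes. Of the 71 genes 8 had an unadjusted p below 0.05 (11.3% against 11.4%), and the median was -0.02.

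Protein quality control showed single called members. Cct8, a subunit of the cytosolic folding chamber TRiC, changed by -0.44 ± 0.10 (SE, limma adjusted p = 0.0483). It was the 1 called of 34 tested chaperone genes (2.94%, against 1.32% of all tested genes), and its call held under 10 of the 26 alternatives. Of the 34 genes 27 were negative (79.4% against 56.6%), and 3 had an unadjusted p below 0.05 (8.82% against 11.4%). The chaperone median was -0.09 on average, -0.023 with mGluR5 and -0.135 without. Psmd6, of the 19S cap of the proteasome, read 8.43, 8.67 and 8.88 in Q20 and 8.94, 9.08 and 9.37 in Q111 arrays, which did not overlap. It rose by 0.45 ± 0.08 (adjusted p = 0.00858) and was the 1 called of 31 proteasome genes (3.23%), whose median was -0.03. Of these 31 genes 3 had an unadjusted p below 0.05 (9.68%). The small heat shock protein Cryab, named after its values were seen, fell by 0.52 ± 0.08 (0.00188). None of 35 autophagy genes was called in limma, and 1 had an unadjusted p below 0.05.

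In the other lists tied to huntingtin no gene passed in limma, and 0 partner, 1 repair and 2 transport genes had an unadjusted p below 0.05. Of 24 genes for huntingtin partners 18 were negative with a median of -0.05, among them Hap1, the huntingtin-associated adaptor of motor proteins (-0.17 ± 0.09, SE, limma adjusted p = 0.482). Of 22 mismatch repair and repeat instability genes, which bear on expansion of the repeat, 16 were negative with a median of -0.06, and Mlh3 stood at -0.17 ± 0.09 (0.489). Of 20 neurotrophin and axonal transport genes none was called.

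Lipid and heme synthesis had called enzymes. Hsd17b7, which works in cholesterol and sex steroid synthesis, read 8.25, 8.56 and 8.87 (lowest, median and highest) in Q20 and 7.80, 7.83 and 7.96 in Q111 arrays, with no overlap. It fell by 0.71 ± 0.09 (SE, limma adjusted p = 0.000309). It was the 1 called gene among 25 of cholesterol synthesis (4%, against 1.32% of all tested genes). Of these 25 genes 3 had an unadjusted p below 0.05 (12% against 11.4%). Their median was -0.05 on average, 0.038 with mGluR5 and -0.083 without. Alad and Ppox, enzymes of heme synthesis named after their values were seen, fell by 0.73 ± 0.09 and 0.34 ± 0.07 (adjusted p = 0.000345 and 0.0231), each without overlap, and the call of Ppox held under 13 of 26 alternatives. Lingo1, a neuronal membrane protein that restrains myelination and axon growth, also named after its values were seen, fell by 0.76 ± 0.07 (3.74e-05). Of 54 cytosolic ribosomal protein genes Rpl26 was the single called member (1.85% against 1.32%), the list median being 0.03. Of the 54 genes 7 had an unadjusted p below 0.05 (13% against 11.4%).

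The medians of most lists were near that of all genes. In 24 of 31 lists the median was negative. In 11 of the 31 lists the median kept its sign under all 15 alternatives examined for it, namely rescaling and leaving out arrays. These were the vascular, GABA, chaperone, direct-pathway, interneuron, mismatch repair, ependymal, huntingtin partner, projection neuron and microglia lists, all negative, and the myelin list, positive. In the other 20 it turned under at least 1 of the 15. The sign was taken against 0 and not against the median of all tested genes. That median was itself negative throughout these settings, from -0.0291 (median centring) to -0.0115 (quantile normalization). A kept negative sign alone therefore does not set a list apart from all genes. Array weights and the choice of probe set, which can also move a median, were not among the 15. In total 24 of the 746 tested genes on the lists were called (3.22%, against 1.32% of all tested genes), but the lists were chosen with earlier results of these data known.

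Called genes lay near each other in several places along the chromosomes. Of the 221 called genes 73, or 33%, lay within 5 tested genes of another called gene, against 11% of all 16706 tested genes with a position. Chromosome 9 held 33 called genes (3.5% of its tested genes), chromosome 14 held 17 (2.88%) and chromosome 1 held 25 (2.6%), against 7 on chromosome 7 (0.499%), which carries Grm5, and 8 on chromosome 5 (0.794%), which carries Htt. Gene order was taken from RefSeq on GRCm38.p6.

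The longest run lay on chromosome 4, with 5 called genes among 10 successive tested genes. Ccl19, Dctn3 and Rpp25l, a ribonuclease P subunit-like gene, fell (Rpp25l -0.59 ± 0.08, SE, limma adjusted p = 0.00125), and Fancg, of the Fanconi anaemia DNA repair complex, rose by 0.55 ± 0.06 (adjusted p = 0.000181). The fifth, the clone-named 4930578G10Rik, which the naming rule leaves out and which is given here for its place beside Ccl19, rose by 2.11 ± 0.13 from a Q20 mean of 4.65, below the 25th percentile of the arrays. Cd72 and its neighbour Tesk1 rose in the same part of the chromosome. Genes within a short stretch thus moved in opposite directions.

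On chromosome 1 a run of 4 genes fell, Rxrg, Hsd17b7, the kinase Uhmk1 (-0.32 ± 0.07, SE) and Atf6, a sensor of the unfolded protein response (-0.41 ± 0.08), with no overlap of the arrays in any of them. On chromosome 14 a run of 4 genes rose, Psmd6, the mitochondrial fatty acid synthesis enzyme Oxsm (0.53 ± 0.07), the thyroid hormone receptor Thrb (0.37 ± 0.07) and the ubiquitin-conjugating enzyme Ube2e2 (0.32 ± 0.07), again with no overlap. Another run on chromosome 14 joined Fam107a (-0.34 ± 0.08), Cfap20dc (0.42 ± 0.08) and Fhit (-0.37 ± 0.08). These runs lose members under other settings, since Rxrg and Ube2e2 were called under 15, Uhmk1 and Fhit under 12 and Fam107a under 11 of 26 alternatives. On chromosome 9 Cryab and Layn, a hyaluronan receptor (-0.43 ± 0.08), lay in a run of 3 (limma adjusted p at most 0.0412 for these genes). Further pairs were Rpl26 with Odf4, Tmem267 with Ccl28, Glo1 with Glp1r, Nat8f4 with Nat8f2, Ackr1 with Aim2 and Sdhc with Pcp4l1. Linked strain alleles around these genes were not measured.

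**Figure D5:**
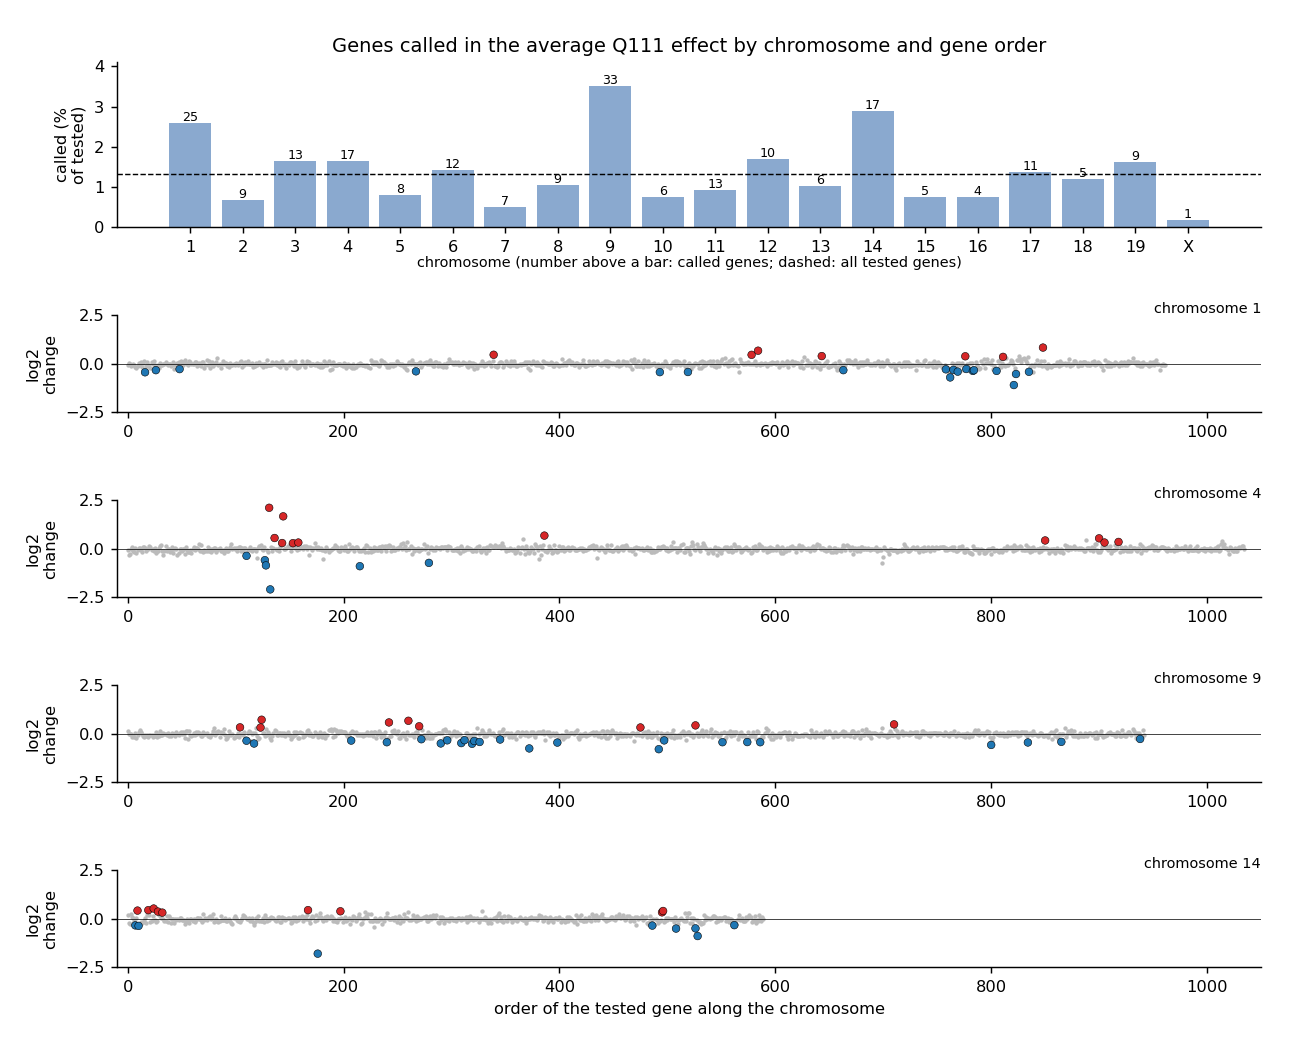
Top, share of tested genes called on each chromosome (vertical axis, percent), with the number of called genes above each bar and a dashed line at 1.32%, the share over all tested genes; chromosome Y and the mitochondrial genome are not drawn. Below, average log2 change (vertical axes) of the tested genes in their order along chromosomes 1, 4, 9 and 14, with red for called rises, blue for called falls and grey for other genes. These 4 chromosomes were picked for having the most called genes, which favours a high share of called genes. They hold 92 of the 221 called genes (41.6%) and 21.1% of the tested genes, and called genes stand in groups on chromosomes 4 and 14.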

How the data were processed

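Total RNA of dissected striatum was isolated with Trizol and hybridised as biotin-labelled cDNA to Affymetrix whole-transcript arrays, per the labels' protocols. The deposited values are log2 signals made by the authors with RMA, per the submitters' processing notes, which name Partek and RMA; the series description names Partek Genomics Suite 6.5. RMA corrects background and equalizes arrays by quantiles, so a shift common to all genes cannot be seen. The genome build of the array is not given in the sources used here.

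The table held 35556 probe sets, 21789 with 1 gene symbol, 1621 with several and 12146 with none. For each of 19938 genes the probe set of highest mean signal in the 12 arrays was used. The 16721 genes above the 25th percentile of their array in at least 3 arrays were tested with limma 3.58.1 (R 4.3.3) in a model that gives each group of 3 arrays 1 mean (8 residual degrees of freedom, prior 6.88), no replicate block, two-sided tests and Benjamini-Hochberg adjustment over all tested genes. The average effect is the mean of both Q111 groups minus the mean of both Q20 groups. Errors of log2 changes are standard errors of limma. Differences between the effects with and without mGluR5 were tested in the same model. The code was tested on simulated data. Python 3.11.15 and matplotlib 3.10.9 made the figures.

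The comparison, the 31 lists (888 genes, 746 tested) and the naming rule were chosen with earlier results of these data known. Named were Htt and Grm5, the 15 largest rises and falls among called genes, called members of the lists, up to 3 members of each described list with the smallest unadjusted p, called genes next to Htt, called genes whose difference between the effects was called too, the 6 largest such differences without an average effect, and the called genes of the 5 longest runs in gene order. Predicted genes, olfactory, vomeronasal and taste receptors and small RNA genes were counted and not named. Adgrl4, Eng, Ptprb, Adgrf5, Alad, Ppox, Lingo1 and Cryab were added after their values were seen, as was 4930578G10Rik. The genes given under other observations and the neighbours Tesk1, Odf4, Glp1r, Nat8f2, Aim2 and Pcp4l1 were also named outside the rule. Gene names followed RefSeq on GRCm38.p6, where 23 named probe sets had no match, and promoters came from the same RefSeq release. Replicate numbers recur in the groups, but same-numbered arrays did not deviate together in all pairs (r = -0.144 to 0.567 over 18 pairs), so they were not taken as pairs. The 26 alternatives covered the model, the call rule, array weights, scaling, the filter, the choice of probe set, the replicate block and each array left out. Precision is limited by the number of arrays, since array signals carry no counts.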

Additional observations from a re-analysis of the deposited data

Results flagged for a closer look

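In 27 named genes the Q111 effect without mGluR5 differed from that with mGluR5 (limma interaction, adjusted p from 1.04e-09 to 0.0473). The effect was lower without mGluR5 in Cfap54 (difference of log2 changes -3.10), Pttg1 (-1.76), Slc6a16 (-1.74), Tacr3 (-1.59), Aldh7a1 (-1.56), Impg1 (-1.30), Tmem267 (-1.12), Acvrl1 (-1.08), Fv1 (-0.98) and Hpgd (-0.97). Smaller differences of that sign were those of Ublcp1 (-0.86), Abhd14a (-0.83), Npl (-0.75), Fndc1 (-0.71), Hhipl1 (-0.65) and Crispld1 (-0.61). The effect was higher without mGluR5 in Dnah6 (5.01), Nt5dc3 (1.62), Tnni1 (1.56), Pcdhb6 (1.48), Nlrp5-ps (1.46), Serpina3n (1.34), Pla2g4e (1.09), Sfrp1 (1.0), Slc15a2 (0.95), Trappc2l (0.79) and Arntl2 (0.73). Impg1 averaged below the 25th percentile of the arrays in 1 group, so its difference has no exact size.

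Single arrays stood apart from the other 5 of their allele by Dixon's criterion in 14 of 248 groups of 6 examined over 124 named genes, where chance alone gives about 1 in 20. Replicate 3 of the Q111 mGluR5+/+ mice was low for Amigo2 (7.02), Atf6 (9.23), Dctn3 (8.57) and Hap1 (8.58), and replicate 1 of these mice for Sfrp1 (6.87). Replicate 2 of the same mice was high for Gabrg1 (8.84), Gsr (8.86) and Hip1 (8.61). Among the Q111 mGluR5-/- arrays replicate 1 was high for Hsd17b7 (7.96) and low for Hspb8 (7.50), and replicate 2 was high for Lingo1 (9.04). Among Q20 arrays replicate 2 of the mGluR5-/- mice was high for Dpy19l1 (8.95) and Trappc2l (9.77), and replicate 2 of the mGluR5+/+ mice for Htt (10.05).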

How the results depend on the processing

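The count of 221 genes for the average effect was 141 in an additive model, 123 in an unmoderated linear model, 391 with array weights (an estimate that stopped before convergence) and 488 once the interquartile range of the arrays entered as a covariate. With that covariate 238 calls (48.8%) were higher, against 37.6%. The stated criteria of the study, an unadjusted p below 0.05 and at least 1.5-fold, gave 51. An adjusted p below 0.05 with at least 1.5-fold gave 49. The 73 genes with a called difference between the effects became 165 under the stated criteria, 19 unmoderated and 153 with the covariate. An intensity trend, median centring, quantile normalization, both filters and both other choices of probe set left the average count between 177 and 300. With 1 array left out the counts ran from 119 to 511 and from 34 to 69. The average count moved by over 1.5 times without replicate 2 (126) or 3 (137) of the Q20 mGluR5+/+ mice, replicate 1 (128) or 2 (137) of the Q20 mGluR5-/- mice, replicate 1 (119) or 2 (511) of the Q111 mGluR5+/+ mice, and replicates 1 (123), 2 (138) and 3 (143) of the Q111 mGluR5-/- mice. The cause was not tested for any of these. No named called gene changed sign.

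The replicate number as a block gave 487 calls for the average effect and 107 for the difference. All pairs of replicate 2 had a positive r (0.339 to 0.567), and those of replicates 1 and 3 ran from -0.144 to 0.462. Same-numbered arrays correlated above 0.1 in 11 of 18 pairs, and 8 of 12 arrays correlated best with an array of their own number, which is a hint from the data and not the design.

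The limits are the 3 arrays a group, the unknown number of animals, the mixed background and the summary of each gene by 1 probe set. Genes under the 25th percentile of the arrays were mostly left out, and changes near that level have no exact size.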

Other observations

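Genes of the extracellular matrix and of cell adhesion outside the lists also differed between Q111 and Q20 arrays. They were picked after their values were seen and are given as values with no test of the group. Fn1, which encodes fibronectin, changed by -0.40 ± 0.08 (SE), Lamb1, a laminin chain of basement membranes, by -0.39 ± 0.07, Fat4, an atypical cadherin, by -0.29 ± 0.06, and the integrin subunit Itga9 by -0.42 ± 0.08 (limma adjusted p = 0.0143, 0.0128, 0.0235 and 0.0233 in that order). Among transporters and channels, Kcnj10, the inward rectifier of astrocytes, changed by 0.35 ± 0.06 (adjusted p = 0.0111). Mt3, the brain metallothionein that binds zinc and copper, changed by 0.26 ± 0.06 (0.0412), and Adcy1, a calcium-stimulated adenylyl cyclase, by 0.28 ± 0.06 (0.0428). Mid1, a ubiquitin ligase on microtubules and the single called gene on the X chromosome, fell by 0.68 ± 0.08 (0.00024) and was called under all 27 settings.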
